A study of Mus musculus with 6 samples.

Results

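The CC and CXC chemokines described here are 10 mouse genes, Ccl2, Ccl3, Ccl4, Ccl5, Ccl6, Ccl7, Ccl9, Ccl22, Cxcl2 and Cxcl10, taken by gene symbol from the 50599 genes of the deposited table. Each symbol matched a row. They were measured by messenger RNA sequencing in RAW264.7 cells, a mouse macrophage line. All cells, controls included, carried a retroviral construct in which an oncoprotein fused to the oestrogen receptor (ER) is switched on by 4-hydroxytamoxifen (4-OHT), and were selected with 70 µg/mL hygromycin B for 7 days. Samples of day 3 given 100 nM 4-OHT, which the labels call senescent through the oncogene, were compared with samples given the ethanol vehicle, 3 in each group and lettered A, B and C. All were in medium without serum for the last 24 hours. The labels name neither the promoter that drives the construct nor whether the cells are a clone or a pool, and they do not say that the lettered samples are separate cultures, so p-values measure the spread between these samples, which may be technical. Samples of cells without the construct are not analysed here, so the drug and the oncoprotein cannot be told apart as sources of a difference. In bulk RNA, fewer cells with a transcript and less of it per cell cannot be told apart either.

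Chemokines are small secreted proteins that guide leukocytes along a concentration gradient through G protein-coupled receptors. The CC family, with adjacent cysteines near the amino terminus, mainly attracts monocytes, macrophages, lymphocytes and dendritic cells, while members of the CXC family, with a residue between those cysteines, attract neutrophils or activated T cells. Macrophages are a main source of many of them, and their transcription is widely driven by NF-κB, AP-1 and interferon-responsive factors, with rapid decay of many of the messages.

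Library depth was 11629150 to 15943722 recovered reads, and replicates differed by more than counting error. Of 14 macrophage markers, among them Lyz2, Cd68 and Csf1r, 13 passed the filter on low counts. The summed normalised level was 127929 to 131686 in vehicle samples and 96904 to 121077 with 4-OHT. With 4-OHT 6 of the 13 were higher and 6 lower, where 33.0% of all 11828 tested genes were higher and 32.5% lower. Under scaling to the total count 2 markers were higher and 7 lower, where 2259 of all tested genes were higher and 6549 lower. Mertk, a phagocytic receptor, was almost absent, with 3 reads in vehicle samples and 4 with 4-OHT.

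Promoter sequence, the 250 bases before the RefSeq start, was matched for 6 of the 10 genes, namely Ccl3, Ccl6, Ccl9, Ccl22, Cxcl2 and Cxcl10. Ccl2, Ccl4, Ccl5 and Ccl7 are named only. Both strands were searched for the NF-κB consensus, AP-1 (TGANTCA), the interferon-stimulated response element (ISRE, TTTCNNTTTC) and the gamma-activated sequence (GAS, TTCNNNGAA). Among 32851 promoters of the same length, 3.9% held the NF-κB consensus, 6.75% AP-1, 2.98% ISRE and 7.02% GAS. Of the 6 chemokine promoters, 3 held the NF-κB consensus, 2 AP-1, 1 ISRE and 0 GAS. Printed here are the promoters of the 3 genes with matches and, for contrast, of Ccl3, the most abundant gene of the set per kilobase. Capitals mark the matches (RefSeq, GRCm38.p6, 5′ to 3′ on the strand of the gene). A match describes letters and is not evidence of binding. The promoter window of Cxcl2 lies at chr5:90903649-90903898 on the plus strand and that of Cxcl10 at chr5:92348890-92349139 on the minus strand. The window of Ccl9 lies at chr11:83578637-83578886 and that of Ccl3 at chr11:83649379-83649628, both on the minus strand. RefSeq starts can differ from the deposited gene positions. The windows of Cxcl2 and Ccl22 run into the deposited gene, and that of Ccl3 ends short of it.
Cxcl2: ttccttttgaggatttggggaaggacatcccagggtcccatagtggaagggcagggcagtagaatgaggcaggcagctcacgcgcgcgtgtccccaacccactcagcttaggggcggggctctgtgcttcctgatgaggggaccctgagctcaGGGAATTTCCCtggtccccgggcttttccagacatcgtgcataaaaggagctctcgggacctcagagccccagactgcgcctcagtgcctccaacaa
Cxcl10: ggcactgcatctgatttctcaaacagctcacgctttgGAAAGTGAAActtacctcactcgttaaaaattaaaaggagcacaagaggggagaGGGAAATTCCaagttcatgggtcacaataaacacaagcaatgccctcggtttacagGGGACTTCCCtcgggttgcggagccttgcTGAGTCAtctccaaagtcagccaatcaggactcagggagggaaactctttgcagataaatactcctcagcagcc
Ccl9: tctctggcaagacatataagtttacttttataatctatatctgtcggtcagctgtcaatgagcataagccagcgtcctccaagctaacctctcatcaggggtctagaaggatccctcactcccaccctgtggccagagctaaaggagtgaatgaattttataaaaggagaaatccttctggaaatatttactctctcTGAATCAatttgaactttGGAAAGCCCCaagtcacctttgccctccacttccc
Ccl3: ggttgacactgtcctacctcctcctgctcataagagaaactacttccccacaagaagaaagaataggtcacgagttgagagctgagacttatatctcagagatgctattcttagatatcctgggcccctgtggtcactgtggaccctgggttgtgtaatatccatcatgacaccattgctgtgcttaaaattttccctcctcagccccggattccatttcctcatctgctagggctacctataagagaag
Positions count back from the base before the start. In Cxcl2 the capitals from -97 to -87 are overlapping matches of the NF-κB consensus on both strands. In Cxcl10 they are the ISRE, on the other strand, from -213 to -204, the NF-κB consensus from -159 to -150 and from -103 to -94, and AP-1 from -74 to -68. In Ccl9 they are AP-1 from -53 to -47 and the NF-κB consensus, on the other strand, from -35 to -26. Ccl3, Ccl6 and Ccl22 held none of the 4 motifs in these windows, which says nothing of the factors.

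With 4-OHT, 8 of the 9 chemokine genes that passed the filter on low counts were higher and 1, Ccl9, was lower, at an adjusted p under 0.05 (limma on log2 of the normalised value plus 1, a scale that understates changes of low genes, with Benjamini-Hochberg adjustment over all 11828 tested genes). Across all tested genes 33.0% were higher and 32.5% were lower. Of the 9 genes, 7 were higher at least 2-fold, against 10.1% of all tested genes. In 8 of the 9, all 3 samples with 4-OHT lay above all 3 vehicle samples, against 35.0% of all tested genes. The median log2 change was 1.94 over the 9 genes and -0.02 over all tested genes. The tenth gene, Ccl22, had too few reads to pass the filter. In a fit without the filter it was not called (log2 change 0.84 ± 0.44, limma adjusted p = 0.171). These counts describe the set and are no test of it.

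**Figure D1:**
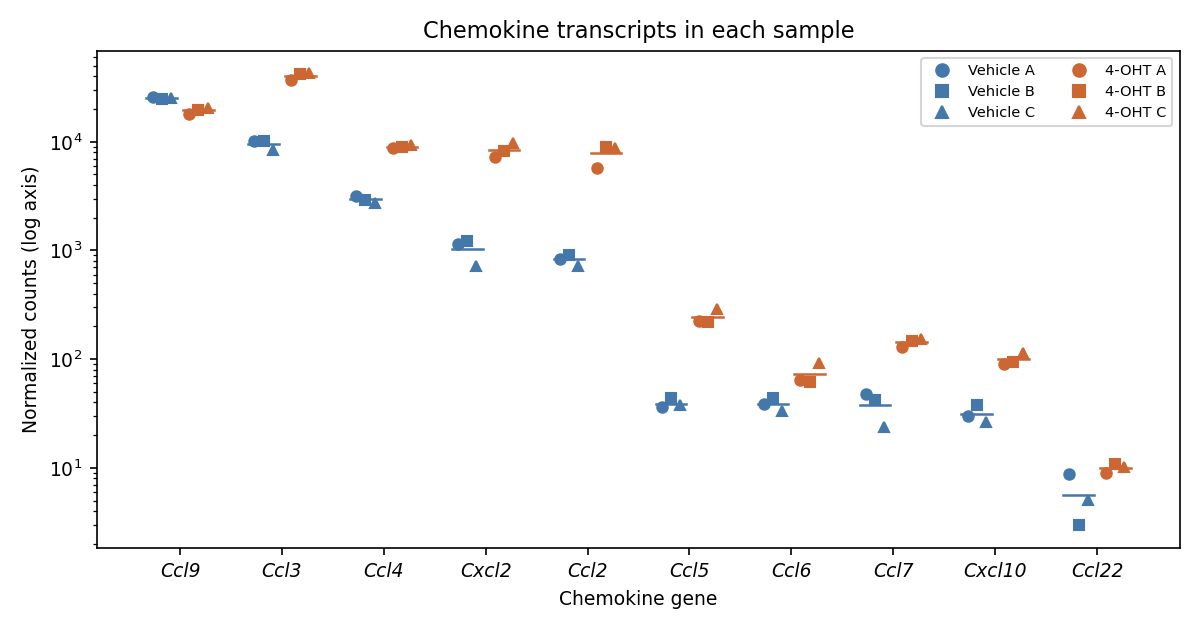
Normalised count of each of the 10 chemokines (log axis) in the vehicle (blue) and 4-OHT (orange) samples, where each symbol is 1 sample and each line the mean of 3. The 4-OHT points lie above the vehicle points in every gene except Ccl9, where they lie below.

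Ccl2 and Ccl7 attract monocytes through the receptor Ccr2, and lie side by side on chromosome 11. Ccl2 (chr11:82035571-82037453, plus strand) had normalised values of 842, 915 and 726 in vehicle samples A, B and C and of 5739, 8866 and 8849 with 4-OHT. All samples with 4-OHT were far above all vehicle samples, and sample A was the lowest of the treated group. The log2 change was 3.22 ± 0.14 (SE, n = 3 per group, limma adjusted p = 7.54e-09), the largest of the 9 tested genes and the 306th highest of all 11828. Ccl7 (chr11:82045712-82047525, plus strand) had 47.8, 42.5 and 23.8 in vehicle samples and 130.3, 146 and 152 with 4-OHT. It was much less abundant than Ccl2, and its vehicle samples varied widely, with sample C lowest, but the groups did not overlap. Its log2 change was 1.94 ± 0.22 (limma adjusted p = 1.51e-05).

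Ccl3 and Ccl4, the macrophage inflammatory proteins 1α and 1β, attract monocytes, macrophages and T cells, and Ccl3 and Ccl5 bind Ccr1. Ccl3 (chr11:83647844-83649355, minus strand) rose from 10166, 10210.2 and 8396 in vehicle samples to 37275, 42124 and 42588 with 4-OHT. The samples of each group were close together, and the groups did not overlap. The log2 change was 2.09 ± 0.09 (limma adjusted p = 5.27e-09). Ccl4 (chr11:83662584-83664683, plus strand) had 3177, 2911 and 2760.1 in vehicle samples and 8776, 8962 and 9356 with 4-OHT. Its replicates were the tightest among the genes that rose, and the log2 change was 1.62 ± 0.06 (limma adjusted p = 1.62e-09). Ccl5, also called RANTES, which attracts T cells and monocytes (chr11:83525778-83530518, minus strand), was scarce, at 36.1, 43.5 and 37.5 in vehicle samples and 225, 222 and 287 with 4-OHT. The groups were well apart, with a log2 change of 2.61 ± 0.14 (limma adjusted p = 2.68e-08).

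Ccl6 and Ccl9 are rodent CC chemokines that act through Ccr1 and lie next to each other, yet they moved in opposite directions. Ccl6 (chr11:83587882-83593087, minus strand) had 39.0, 43.5 and 33.2 in vehicle samples and 64.6, 61.2 and 91.8 with 4-OHT. The groups did not overlap, and sample C stood above the other treated samples. The log2 change was 0.88 ± 0.19 (limma adjusted p = 0.00168). Ccl9 (chr11:83572919-83578636, minus strand), second to Ccl3 per kilobase in vehicle samples, had 25734, 24493 and 25230.2 in vehicle samples and 18073, 19770.1 and 20553 with 4-OHT. It was the single member that fell, with all treated samples below all vehicle samples, and its log2 change was -0.37 ± 0.07 (limma adjusted p = 0.000738).

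Cxcl2, which attracts neutrophils through Cxcr2 (chr5:90903871-90905938, plus strand), had 1143, 1225 and 716 in vehicle samples and 7315, 8194 and 9770.1 with 4-OHT. Vehicle sample C was the lowest and treated sample C the highest of the 6, and the groups lay far apart. The log2 change was 3.06 ± 0.17 (limma adjusted p = 3.75e-08). Cxcl10, an interferon-inducible ligand of Cxcr3 (chr5:92346638-92348889, minus strand), had 30.2, 37.6 and 26.7 in vehicle samples and 90.6, 95.03 and 114 with 4-OHT. It was scarce in both groups, did not overlap between them, and had a log2 change of 1.64 ± 0.17 (limma adjusted p = 7.11e-06). Ccl22, a ligand of Ccr4 that attracts regulatory and type-2 helper T cells (chr8:94745590-94751699, plus strand), had 8.77, 2.97 and 5.05 in vehicle samples and 9.06, 10.9 and 10.2 with 4-OHT. These values rest on 19 reads against 27 in all, and the groups did not overlap, by a narrow margin. The ratio of reads, 4-OHT over vehicle, was scaled by the summed size factors, the divisors that turn counts into normalised values. So scaled it was 1.81, with a 95% exact binomial interval of 0.973 to 3.45, which covers counting error only. An exact two-sided permutation test over samples gave p = 0.1, the smallest that 3 against 3 allows. In the authors' deposited table the adjusted p of Ccl22 was 0.337.

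**Figure D2:**
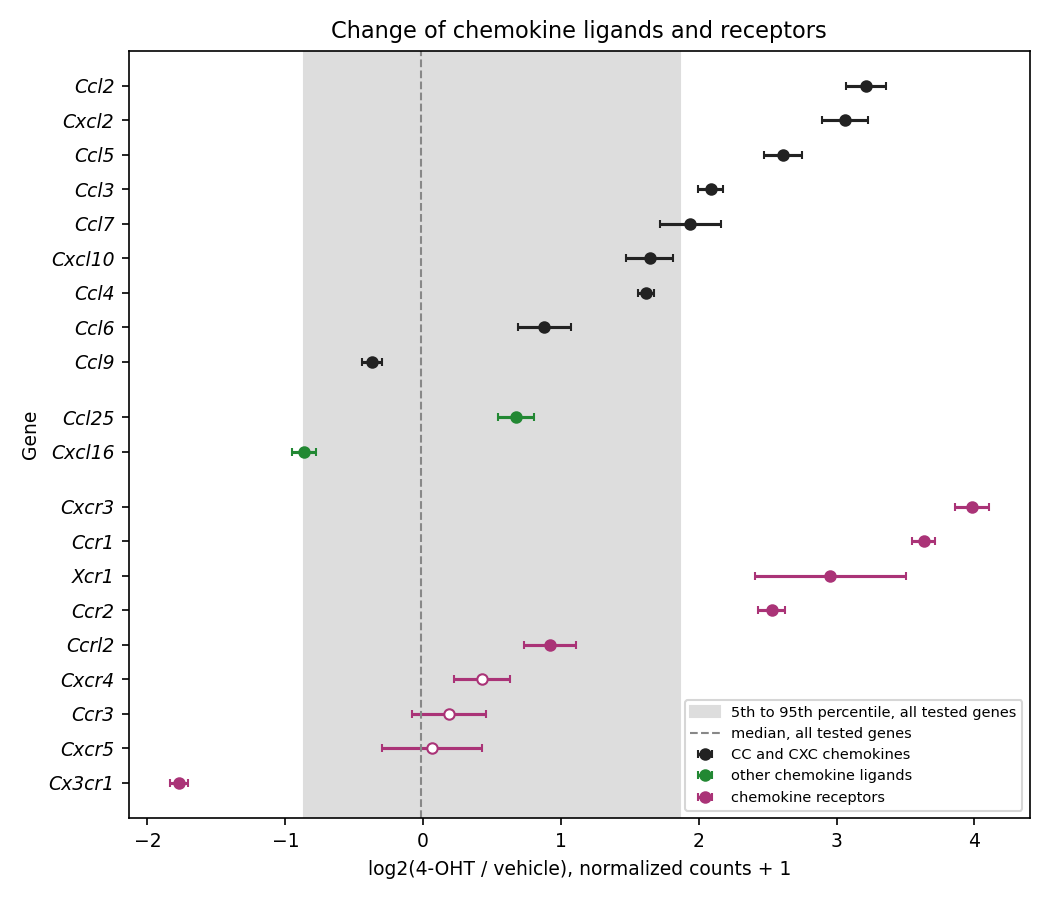
Log2 change (4-OHT over vehicle, limma, with SE) of the 9 tested chemokines (black), other chemokine ligands (green) and 9 chemokine receptors (purple, open where not called), over the range from the 5th to the 95th percentile of all tested genes (grey) and their median (dashed). Ccl2 and Cxcl2 have the largest changes among the 9, at 3.22 and 3.06, and Ccl9 is the one of them below 0, at -0.37.

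Levels were compared between genes per kilobase of exon. In vehicle samples the order of mean normalised value per kilobase was Ccl3 at 12521 ± 1351 (SD, n = 3), Ccl9 at 8367 ± 208, Ccl4 at 4468 ± 320, Ccl2 at 1018 ± 117 and Cxcl2 at 553 ± 147, with Ccl5, Ccl7, Ccl6, Cxcl10 and Ccl22 below 100. The ranges of Ccl7 and Ccl6, and of Ccl6 and Cxcl10, overlapped, and the others did not overlap their neighbours. With 4-OHT, Ccl3 stood at 53084 ± 3842, Ccl4 at 13684 ± 449, Ccl2 at 9616 ± 2214, Ccl9 at 6476 ± 422, Cxcl2 at 4533 ± 669 and Ccl5 at 460 ± 68.7. Ccl9 stood at rank 2 in vehicle samples and at rank 4 with 4-OHT, and Cxcl10 and Ccl6, at 65.8 ± 8.35 and 50.4 ± 11.7, overlapped.

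The 10 genes together made up 0.364%, 0.341% and 0.330% of the reads in vehicle samples A, B and C and 0.565%, 0.613% and 0.633% with 4-OHT. The share was 0.345% ± 0.0171 against 0.603% ± 0.0348 (SD, n = 3), and an exact two-sided permutation test gave p = 0.1, the smallest possible. Without Ccl3 the shares were 0.262% and 0.318%. Within the reads of the 10 genes, Ccl9 fell from 61.3 to 66.5% in vehicle samples to 22.4 to 23.3% with 4-OHT, while Ccl3 made up 22.1 to 25.6% and then 46.4 to 48.0%.

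**Figure D3:**
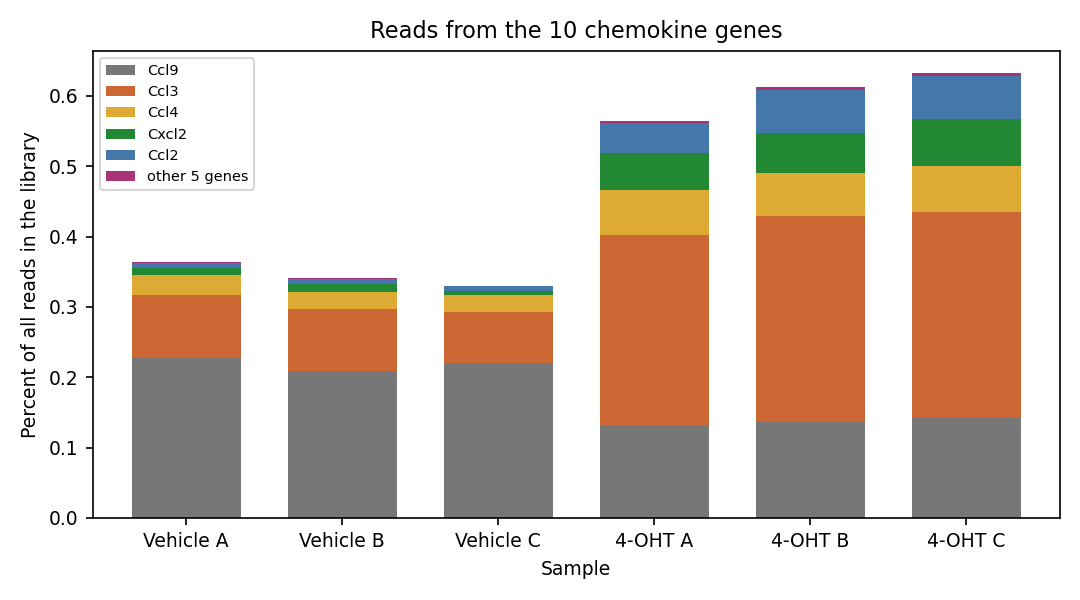
Share of all reads (percent) from the 10 chemokines in every sample, stacked by gene with the 5 scarcest joined. Totals lie between 0.330% and 0.364% in vehicle samples and between 0.565% and 0.633% with 4-OHT, and Ccl9 gives most of the vehicle total and Ccl3 the largest part of the treated total.

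Genes beside each other were compared in 3 pairs, picked after their values were seen. The ratio of Ccl2 to Ccl7 was 17.6, 21.5 and 30.5 in vehicle samples and 44.1, 60.6 and 58.3 with 4-OHT. That of Ccl3 to Ccl4 was 3.20, 3.51 and 3.04 and then 4.25, 4.70 and 4.55. That of Ccl9 to Ccl6 was 660.2, 563 and 761 and then 279.9, 323 and 224. None of the 3 overlapped between groups, and each exact permutation p was 0.1, the smallest possible. As the pairs were picked from these same values, the ratios describe them and the p-values are no test. In the first chromosome 11 run, Ccl11, Ccl12, Ccl8 and Ccl1, which follow Ccl7, had 0 reads except Ccl12, with 1. The flanking genes Asic2 and Tmem132e had 0 reads. In the second run, Ccl9, Ccl6, Ccl3 and Ccl4 start 47.1, 62.1, 122 and 137 kb after Ccl5, and the flanking genes were Heatr9, with 5 reads, and Wfdc17, not called.

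**Figure D4:**
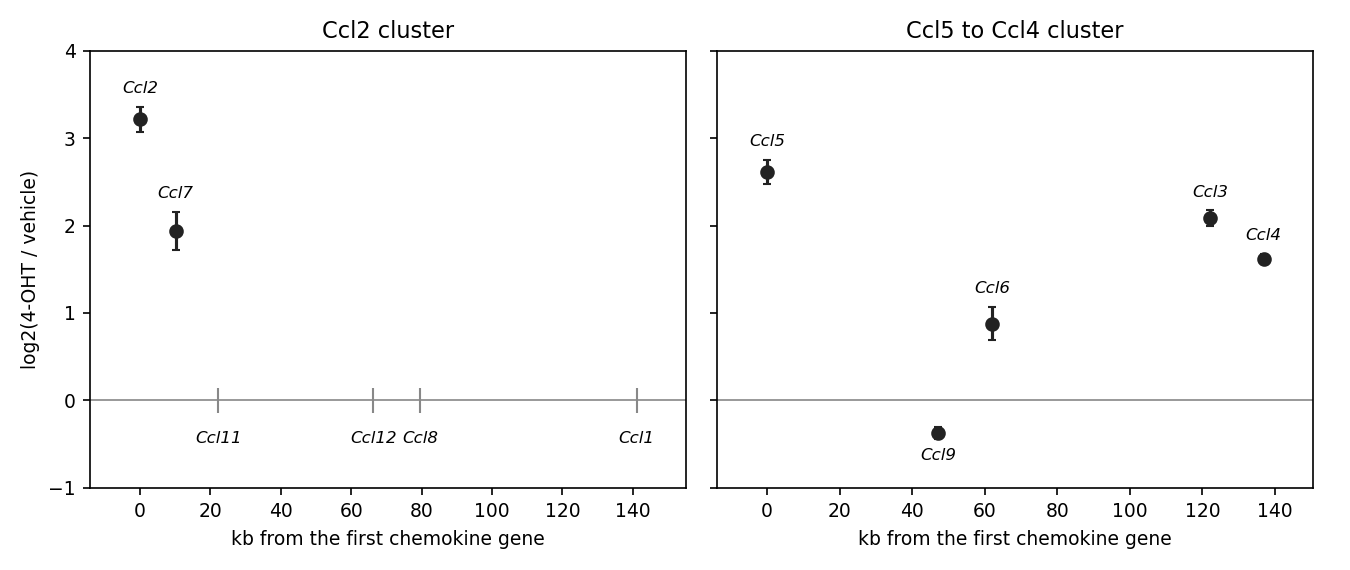
Log2 change (4-OHT over vehicle, with SE) against distance in kilobases from the first chemokine of the Ccl2 cluster (left) and of the Ccl5 to Ccl4 cluster (right) on chromosome 11. Points are tested genes and ticks at 0 mark chemokine genes that were not tested. Ccl9 lies below 0 between Ccl5 and Ccl6, which lie above it.

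On chromosome 5, Cxcl2 was expressed while Cxcl5, Ppbp and Cxcl15 had 0 reads and Cxcl1, Cxcl3 and Pf4 had 3, 2 and 5. Its flanking genes were Rassf6, with a log2 change of 2.76 (limma adjusted p = 0.000106), and Mthfd2l, at 0.31 (limma adjusted p = 0.0625). Cxcl10 lies between Cxcl9, with 3 reads, and Cxcl11, with 13, and neither flanking gene, Sdad1 or Nup54, was called. Cxcl10 shared 5.54% of its 50-base words with Art3, which overlaps it on the other strand and had 5 reads, and Cxcl2 shared 3.28% with Cxcl3. Ccl9, the member that fell, shared 1.995%, or 59 of 2957 words, with Ppp1r7, Smarcb1, Sphk1, Cyp20a1 and Sass6. A part of the counts of these 3 members is uncertain. Ccl6 overlaps E230016K23Rik on the other strand, with 60 reads. On chromosome 8, Ccl22 is followed by Cx3cl1 and Ccl17, both at 0 reads, and its flanking genes were Pllp, with 1 read, and Ciapin1, with a log2 change of 0.15 (limma adjusted p = 0.0366), smaller than the shift of the median of all genes under scaling to the total count.

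Vehicle C was the lowest of its group for 7 of 10 chemokines, against 37.2% of tested genes, and treated A was the lowest for 8, against 34.6%. Treated C was the highest for 8 of the 10, against 33.0%. Leaving out any single sample changed the call of none of the 9 tested members. The genes with the profile most like each member over the 6 samples, by root mean square difference of centred log2 values among 8491 genes with at least 10 CPM, were Procr for Ccl2 (0.0706), Peak1 for Ccl3 (0.0934), Kctd12 for Ccl4 (0.0586), Oasl2 for Ccl5 (0.067), Pde4b for Ccl6 (0.126), Synpo for Ccl7 (0.189), Scarb1 for Ccl9 (0.0219), Ptgs2 for Cxcl2 (0.126) and Ppp1r15a for Cxcl10 (0.0847). Oasl2 is an interferon-stimulated gene and Ptgs2 encodes cyclooxygenase 2. Such a profile is set mostly by the size of the change between the groups, and shared regulation was not tested.

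Among 30 other chemokine ligands, 15 had no read and 2 were tested. Ccl25, a ligand of Ccr9, was higher, at 76.7 ± 9.07 and 122.5 ± 11.01 (log2 change 0.67 ± 0.13, limma adjusted p = 0.000798). Under scaling to the total count its log2 change was 0.37 (limma adjusted p = 0.0222). Ccl25 overlaps Elavl1 on the other strand, with 4706 reads in vehicle samples and 3654 with 4-OHT. Strand handling is not given, so a part of the Ccl25 counts is uncertain. Cxcl16, the transmembrane ligand of Cxcr6, was lower, at 336 ± 23.1 and 184 ± 10.3 (log2 change -0.86 ± 0.09, limma adjusted p = 4.48e-06). Cxcl11 had 3 and 10 reads and Xcl1 0 and 10, both untested in the main fit.

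Of 24 chemokine receptors 10 passed the filter, with 6 higher, 1 lower and 3 that missed the threshold. Across all tested genes 33.0% were higher and 32.5% lower. The median log2 change was 1.73 over the 10 receptors and -0.02 over all tested genes. These counts describe the receptors and are no test of them. Receptors of the members were among those that rose. Ccr1, the receptor of Ccl3, Ccl5, Ccl6 and Ccl9, had 821 ± 19.1 in vehicle samples and 10239 ± 1366 with 4-OHT (log2 change 3.63 ± 0.08, limma adjusted p = 4.04e-11). Cxcr3, the receptor of Cxcl10, had 308 ± 40.7 and 4899 ± 849 (3.98 ± 0.12, limma adjusted p = 4.12e-10). Ccr2, the receptor of Ccl2 and Ccl7, had a log2 change of 2.53 ± 0.10 (limma adjusted p = 2.15e-09). Xcr1 changed by 2.95 ± 0.55 (limma adjusted p = 0.000577), but on only 5 reads in vehicle samples and 42 with 4-OHT. Ccrl2, an atypical receptor, changed by 0.92 ± 0.19 (limma adjusted p = 0.00115). Cx3cr1, the receptor of Cx3cl1, fell by 1.77 on the log2 scale (limma adjusted p = 1.50e-09), with Cx3cl1 itself at 0 reads. Ccr3, Cxcr4 and Cxcr5 were not called. Cxcr2, the receptor of Cxcl2, and Ccr4, of Ccl22, were not tested, with 3 and 0 reads in vehicle samples and 4 and 5 with 4-OHT.

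Further lists held regulators of chemokine transcription, factors of messenger decay and stability, and proteases that can cleave chemokines. Their counts are given beside the 33.0% of all tested genes that were higher and the 32.5% that were lower. Under scaling to the total count they stand beside 2259 higher and 6549 lower of 11828. These counts describe each list and are no test of it. Of 16 NF-κB subunits and regulators 7 were higher and 5 lower (2 and 9 under scaling to the total count). Tnfaip3, the feedback inhibitor A20, and Nfkbiz changed by 2.09 and 1.63, and Nfkbie and Ikbke by -0.70 and -0.82. Of 11 IRF and STAT factors 7 were higher and 3 lower (6 and 4 under that scaling). Among those that rose were Irf7 at 1.73, Stat2 at 0.79, Stat3 at 0.75 and Irf9 at 0.62, and Irf2, at -0.58, was among the 3 that fell. Of 10 tested AP-1 factors 7 were higher and 1 lower (6 and 3 under that scaling). Maff stood at 2.79, Jun at 2.22, Fosl1 at 1.81 and Atf3 at 0.68, and the 1 that fell was Fos, at -1.03. Of 11 factors of messenger decay and stability 7 were higher and 1 lower (3 and 5 under that scaling), among them Zfp36, or tristetraprolin, at 1.61, Rc3h1 at 0.90, Zfp36l2 at 0.48 and Rc3h2 at 0.40 (not called under that scaling). Of 5 tested proteases that can cleave chemokines 3 were higher and 1 lower (3 and 2 under that scaling). Mmp9 changed by 3.51, Mmp13 by 5.26 on 2 against 136 reads, Mmp12 by 0.86 and Adam17 by -0.49. Limma adjusted p-values of these regulators and proteases lay between 3.18e-11 for Jun and 0.00225 for Mmp12, and all changes are on the log2 scale. Over all genes, that scaling moved the median log2 change from -0.02 to -0.32.

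Summed normalised levels of markers of other cells were 0 to 4.94 in vehicle samples and 1.13 to 7.93 with 4-OHT for fibroblasts, 0.975 to 3.60 and 0 to 2.27 for lymphocytes, and 14.4 to 24.4 and 21.5 to 32.8 for dendritic cells. Of these, 0 of 6 fibroblast, 0 of 6 lymphocyte and 2 of 6 dendritic cell markers passed the filter, and Col3a1, Lum, Ms4a1 and Siglech were at 0. Neutrophil and mast cell markers summed to 0.975 to 4.33 and 27.2 to 73.6. The 1 of 10 that passed the filter was S100a8, with 4 and 121 reads, while Ly6g, Camp, Cpa3, Tpsb2 and Fcer1a were at 0. Endothelial and epithelial markers summed to 0.975 to 5.77 and 23.8 to 39.3. The 1 of 6 that passed was Cdh5, with 10 and 77 reads, and Tie1 and Krt18 were at 0. The part of such cells in the chemokine differences was not tested.

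**Figure D5:**
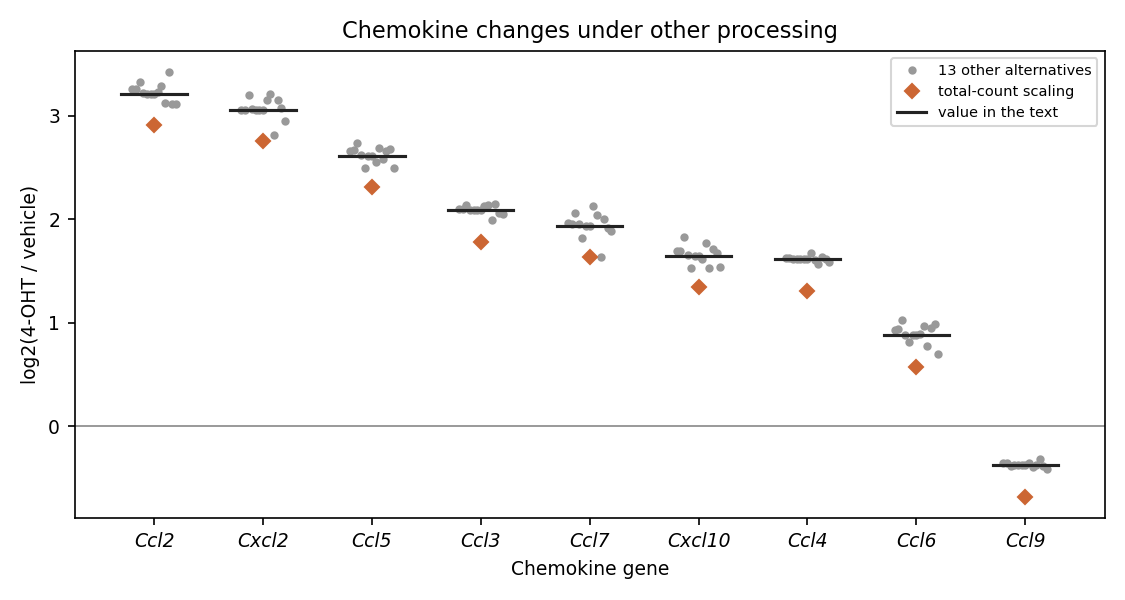
Log2 change of the 9 tested chemokines as given in the text (lines), under total-count scaling (diamonds) and under 13 other alternatives (grey points). Each gene kept its direction and its call in all 14, and Ccl9 ranged from -0.68 to -0.32.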

How the data were processed

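Each library took 1000 ng of RNA with an integrity number above 9.5, had 9 PCR cycles and was sequenced single-end, per the labels. Tools in the submitters' processing notes are STAR 2.5.1b, RSEM, DESeq2 1.18.1, Trimmomatic 0.35 and bcl2fastq 2.20, and the build is GRCm38 (mm10). What each tool did, the annotation, strand handling and the treatment of multi-mapping reads are not given in the sources used here. The deposited signal is a normalised value per gene and sample, and its values are whole multiples of a step in each column (100% of positive values within 1e-06), as a count divided by a size factor gives. The steps were 0.975, 0.989 and 0.721 in vehicle samples A, B and C and 1.13, 1.09 and 1.13 with 4-OHT, and dividing by them gave reads. The step of vehicle B is close to 1, so an edgeR fit left that sample out. The deposited log2 fold change, p-value and test score columns are the authors', per the file headers, and only the adjusted p of Ccl22 is quoted.

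The values were tested on log2(value + 1) with limma 3.58.1 in R 4.3.3, with a mean-variance trend and group as the only term, over the 11828 genes kept by filterByExpr of edgeR 4.0.16 at a minimum of 10 recovered reads. P-values were two-sided and adjusted by Benjamini-Hochberg at 0.05. Alternatives were edgeR and DESeq2 1.42.0 on recovered reads, scaling to the total count, pseudocounts of 0.5 and 5, no filter, the replicate letter as a block and leaving out each sample. Positions are those of the deposited table, exon lengths come from GENCODE and promoters from RefSeq. Shares are given with the SD over samples, and the exact binomial interval of the Ccl22 ratio covers counting error only.

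The members and gene lists were chosen with earlier results of these data known. Genes named are the 10 members, the other ligands and receptors that were tested or had at least 10 reads, up to 4 of each other list with the smallest limma p, the nearest profile of each member and the genes of the same cluster within 500 kb with their flanking genes. Fos and Irf2 are named besides, as factors that fell. A tested receptor and a marker that these rules take are not reported here.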

Additional observations from a re-analysis of the deposited data

How the results depend on the processing

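All 9 tested chemokines kept their direction and an adjusted p under 0.05 in 14 of 14 alternatives, with the largest adjusted p, 0.00947, for Ccl6. Log2 changes ranged from 2.91 to 3.42 for Ccl2, 2.76 to 3.21 for Cxcl2, 2.31 to 2.74 for Ccl5, 1.78 to 2.15 for Ccl3, 1.64 to 2.13 for Ccl7, 1.34 to 1.83 for Cxcl10, 1.31 to 1.67 for Ccl4, 0.58 to 1.03 for Ccl6 and -0.68 to -0.32 for Ccl9. Scaling to the total count left 2259 genes higher and 6549 lower, against 3902 and 3848, and NF-κB subunits and regulators at 2 higher and 9 lower. On recovered reads edgeR called 3997 genes higher and 3734 lower (3705 and 3390.0 without vehicle B) and DESeq2 3731 and 3236. Without the filter, 3 of 15 other chemokine ligands were higher and 1 lower, where 4488 of all 23917 genes were higher and 3744 lower. The added calls were Xcl1, on 0 and 10 reads, and Cxcl11, on 3 and 10 reads (limma adjusted p = 0.00137 and 0.0493). The difference in read share was 0.244 to 0.278 percentage points without single samples, at the smallest exact p possible, 0.2. With the replicate letter as a block, 4004 genes were higher and 3968 lower, and 8 chemokines were higher and 1 lower. Deviations of genes from their group mean correlated at 0.109, 0.0363 and 0.1205 between same-lettered samples (A, B and C). Between samples of different letters they correlated at -0.118 to 0.0063, so the deviations of each sample correlated best with those of its own letter. The main fit nevertheless did not pair samples by letter. Depth limits Ccl22, at 46 reads, most.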
